A study of Mus musculus with 12 samples.

Results

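The genes of the cytoplasmic ribosomal proteins were followed in mouse HoxB8 cells that carried a truncated Asxl1, a mutant CSF3R receptor, both or neither. Members were chosen by symbol alone: names that start with Rpl or Rps and a digit, together with Rplp0 to Rplp2 and Rpsa, without pseudogene symbols and without the Rps6k kinases. The rule found 88 of the 24411 symbols in the count table, and 82 of them had enough counts to be tested among 11578 genes. HoxB8 cells are bone marrow progenitors immortalised by an estrogen-dependent Hoxb8, and they mature when estrogen is withdrawn. All cells were grown in RPMI with serum and SCF-conditioned medium, had estrogen removed for 24 h before RNA was taken, and carried both a pMIG and a pMICH vector. The 4 groups are named by the inserts of these vectors, pMIG first: Empty/Empty, Empty/T618I (CSF3R T618I, an activating mutation of the G-CSF receptor), Asxl1-MT2/Empty (a truncated Asxl1) and Asxl1-MT2/T618I. Each group had 3 libraries, called A to C as in the table. The labels do not say whether these came from separate cultures or transductions, so a p-value here is set against variation among the libraries of a group that may be technical only. Both inserts were added by vector, so the model is overexpression.

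A ribosome is built from ribosomal RNA and, for the most part, a single copy of each ribosomal protein of its small (Rps) and large (Rpl) subunit, so cells need these proteins in balanced amounts. Their mRNAs are short and abundant, and most begin with a terminal oligopyrimidine (TOP) tract, a run of C and T bases through which mTOR signalling and LARP1 control their translation. Blood formation is sensitive to them: inherited loss of 1 copy of several of these genes causes Diamond-Blackfan anemia.

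Libraries held 9341984 to 10252291 counts. Levels are given as CPM (counts per 1000000 counts of the library, scaled by the TMM factors described with the processing). The Asxl1 symbol stood at 1678 to 1833 CPM in Asxl1-MT2/Empty and at 919 to 1086 CPM in Asxl1-MT2/T618I. In the other 6 libraries it was at 116 to 167 CPM. The 2 groups labelled Asxl1-MT2 thus did not overlap in Asxl1 level, and the part of this difference in the results that follow was not tested. Socs3, a target of G-CSF receptor signalling, stood at 151 to 264 CPM in the T618I libraries and at 10.4 to 13.8 CPM in the rest. One Empty/Empty title carries a genotype label that names T618I. Groups here follow the titles, and Socs3 was 11.9 to 13.8 CPM in all 3 Empty/Empty libraries. Markers of maturation also differed between groups. The summed level of 10 mature neutrophil genes was 1337 to 2263 CPM in Empty/Empty libraries, 3617 to 4721 in Empty/T618I, 1837 to 2683 in Asxl1-MT2/Empty and 19767 to 27744 in Asxl1-MT2/T618I, and the 8 progenitor genes stood at 34353 to 42955, 16174 to 19002, 38519 to 42787 and 14256 to 18832 CPM in the same order. The progenitor sum is weighted to Mpo, which alone took 2.55% to 3.35% of counts in Empty/Empty and 0.839% to 1.21% in Asxl1-MT2/T618I. Hoxb8, also on that list, was 242 to 332 CPM in Empty/T618I and 559 to 586 in Asxl1-MT2/T618I, so not every gene followed the sum. The sum of 12 mast cell and basophil genes was 3691 to 6959 CPM in Empty/T618I and 3709 to 4112 in Asxl1-MT2/T618I, against 690 to 1281 in the groups without T618I. The sum of 7 monocyte genes was 812 to 1112 CPM in Asxl1-MT2/T618I and 447 to 674 in the other groups. The sum of 7 erythroid genes, of which 3 were detected in each group, was at most 10.9 CPM in any library. That of 6 lymphoid genes, 2 or 3 of them detected, was at most 11.05 CPM. For 6 stromal genes, 2 to 4 of them detected, it was at most 5.27 CPM. On these lists the adult globin genes Hbb-bs, Hbb-bt, Hba-a1 and Hba-a2 were at 0 in every library, as were Cd3e, Ms4a1 and Pdgfra. The part of these marker changes in the results that follow was not tested.

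The ribosomal protein genes together took 4.74%, 4.61% and 5.25% of all counts in Empty/Empty libraries A, B and C, and 5.07%, 4.98% and 4.54% in Empty/T618I. Their share was 5.02%, 5.30% and 4.66% in Asxl1-MT2/Empty and 4.003%, 4.19% and 4.16% in Asxl1-MT2/T618I. All 3 libraries with both constructs lay below the other 9, which overlapped freely. The means were 4.87% ± 0.337, 4.86% ± 0.286, 4.99% ± 0.323 and 4.12% ± 0.1001 (SD, n = 3 libraries each). Because this is a share of counts, fewer cells with many ribosomal protein mRNAs and fewer such mRNAs per cell cannot be told apart, and a rise of other abundant mRNAs lowers it as well. The TMM factors, which correct for such rises, were 0.919 to 0.959 in Asxl1-MT2/T618I and 1.01 to 1.03 in the other libraries.

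**Figure D1:**
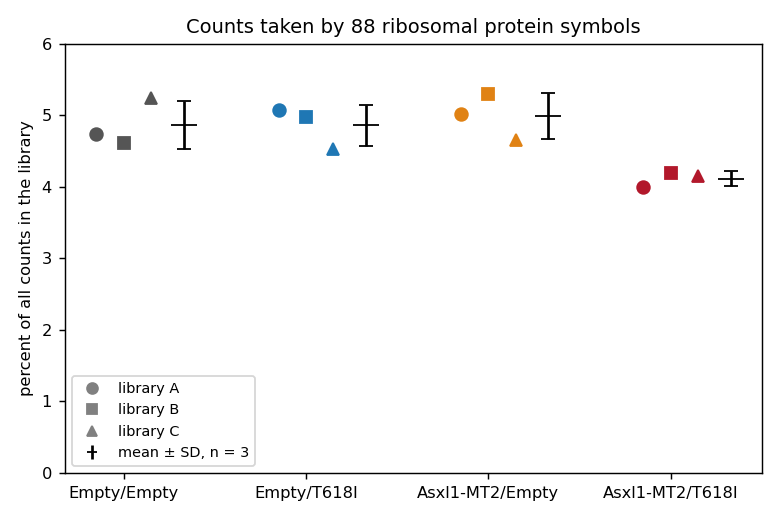
Percent of all counts taken by the 88 ribosomal protein symbols (y axis) in each of 12 libraries, grouped by construct (x axis), where symbols mark libraries A to C and bars the mean ± SD of 3. The 3 Asxl1-MT2/T618I libraries, at 4.003% to 4.19%, sit below all others.

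Per kilobase of coding sequence the highest mean level over the 12 libraries was that of Rpl41, at 10253 CPM per kb. Rpl41 encodes the shortest ribosomal protein, and its coding sequence has 75 bases. Rplp1 followed at 3430, Rpsa at 2723, Rps26 at 2707 and Rplp0 at 2298 CPM per kb. None of these 5 passed the test in any of the 5 comparisons below. Rpsa, a small-subunit protein also known as a laminin receptor, had the highest plain CPM and shows the spread well. Its level was 2265, 2159 and 2598 CPM in Empty/Empty libraries, 2374, 2445 and 2394 in Empty/T618I, 2569, 2697 and 2467 in Asxl1-MT2/Empty and 2368, 2411 and 2176 in Asxl1-MT2/T618I. The groups overlapped, except that the libraries of Empty/T618I and of Asxl1-MT2/T618I lay below those of Asxl1-MT2/Empty. Asxl1-MT2/T618I differed from Asxl1-MT2/Empty by -0.15 ± 0.0816 (log2 fold change and SE, adjusted p = 0.13, edgeR quasi-likelihood test).

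The members moved together from library to library. Relative to its own mean over the 12 libraries (log2 of CPM plus 0.5), the median member stood at -0.03, -0.08 and 0.14 in Empty/Empty A, B and C, at 0.09, 0.06 and -0.07 in Empty/T618I and at 0.08, 0.17 and -0.04 in Asxl1-MT2/Empty. In Asxl1-MT2/T618I it stood at -0.11 in each of the 3. Within Empty/Empty, library C was the highest of 3 for 58 of the 82 tested members. Library C was the lowest for 59 in Empty/T618I and for 64 in Asxl1-MT2/Empty, where B was the highest for 66. This shared swing of whole libraries is as wide as the median group differences reported below, and values without single libraries are given where they change a count. In Asxl1-MT2/T618I the 3 libraries lay close together, with 8, 16 and 2 of 82 members above their own 12-library mean. By group means, Asxl1-MT2/T618I was the lowest of the 4 groups for 64 of 82 members, and Asxl1-MT2/Empty the highest for 49.

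**Figure D2:**
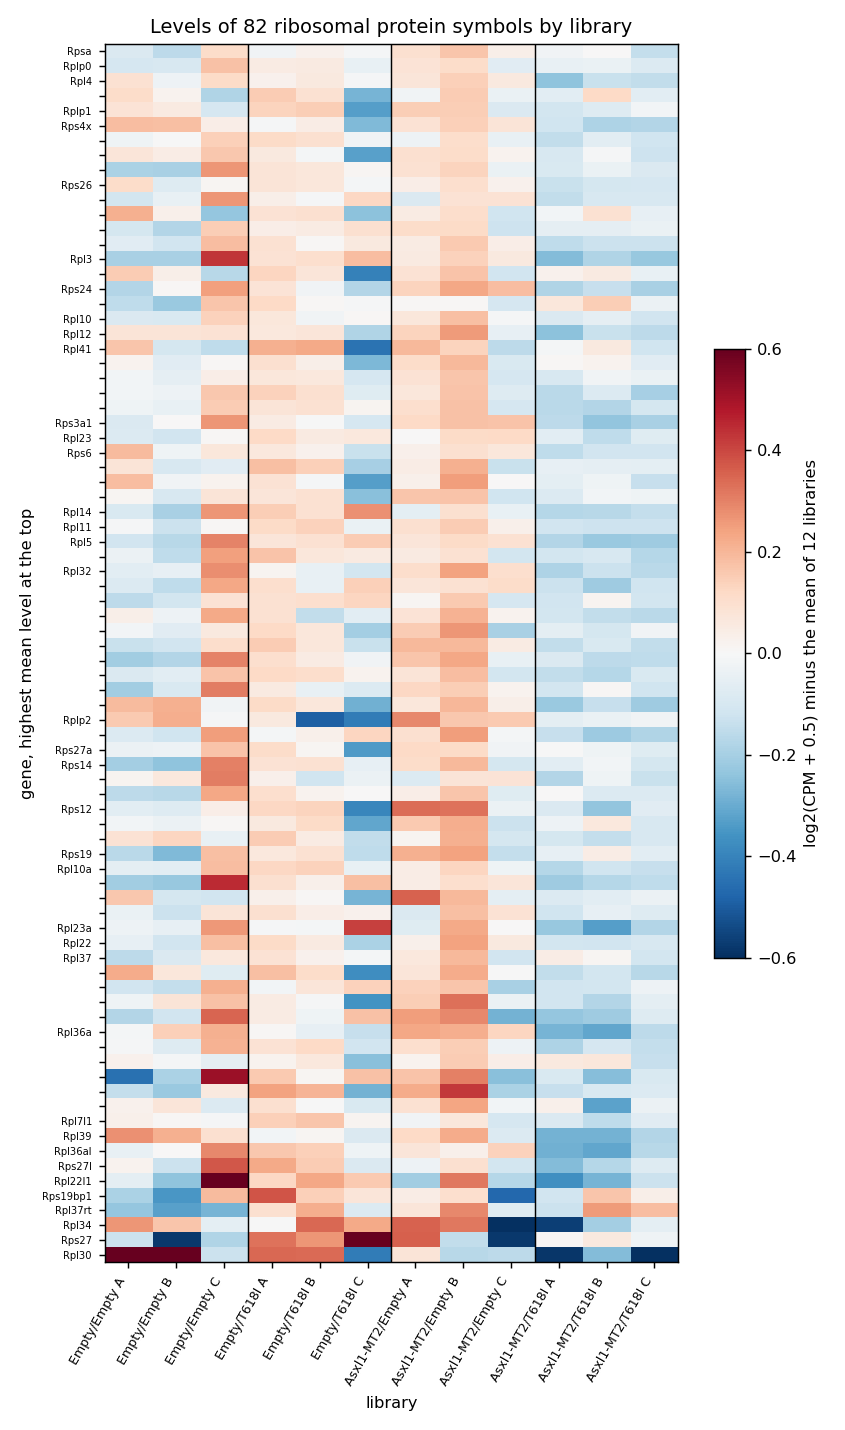
Level of each of the 82 tested ribosomal protein symbols (rows, highest mean level at the top, labelled where the gene is named in the text) in the 12 libraries (columns), as log2(CPM + 0.5) minus that gene's mean, with the colour scale ending at 0.6 either way. Whole columns shift together, such as Empty/Empty C upward, and the 3 Asxl1-MT2/T618I columns are low for nearly all rows; the few rows with large swings at the bottom have very few counts.

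CSF3R T618I alone left the ribosomal protein genes nearly where they were. Against Empty/Empty, 1 of 82 members was higher and 2 were lower in Empty/T618I (edgeR quasi-likelihood test, adjusted p under 0.05), where 33.5% of all genes passed, 17.6% higher and 15.9% lower. The median member changed by 0.02 on the log2 scale, and 97.6% of members changed by less than 0.5, against 75.5% of all genes. Rplp2, a protein of the stalk that recruits elongation factors, was 510, 532 and 455 CPM in Empty/Empty against 477, 326 and 342 CPM in Empty/T618I. It fell by 0.39 ± 0.113 (SE; adjusted p = 0.0137, edgeR) although library A of Empty/T618I overlapped the controls, and the call was lost without Empty/Empty B, Empty/T618I B or Empty/T618I C. Its partners Rplp0 (0.02, adjusted p = 0.861) and Rplp1 (-0.01, adjusted p = 0.94) did not pass the same edgeR test. Rpl39, a small protein in the wall of the exit tunnel for new peptides, went from 176, 169 and 156 CPM to 144, 147 and 137 CPM without overlap. Its log2 fold change was -0.23 ± 0.0841 (adjusted p = 0.0458, edgeR). The member called higher, Rps27, had only 9 to 26 counts in these 6 libraries and is described with the paralogues. Of these calls, that of Rps27 was lost in 11 of 19 alternative settings and that of Rpl39 in 12. Without Empty/Empty library C, which was high for most members, 12 of 83 members were higher in Empty/T618I in place of 1, among them Rpl3 (0.34), Rpl5 (0.27) and Rps14 (0.29). In that setting 2208 of 11732 genes were higher.

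Truncated Asxl1 alone moved none of the 82 past the threshold (edgeR, adjusted p under 0.05), where 1.86% of all genes passed, 1.24% higher and 0.622% lower. One member had an unadjusted p under 0.05, and DESeq2 called 0. The median member was 0.07 higher on the log2 scale, with 63 of 82 above zero. All 3 Asxl1-MT2/Empty libraries lay above all 3 Empty/Empty libraries for 2 members and below them for 0, against 8.82% and 7.06% of all genes. The 2 were Rpl11 and Rpl37rt, picked out here after their values were seen.

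With both constructs, a minority of the ribosomal protein mRNAs were lower than with T618I alone, by small amounts. Of 82 members, 11 were lower and 0 higher in Asxl1-MT2/T618I than in Empty/T618I (edgeR), where 43.9% of all genes passed, 25.4% higher and 18.5% lower. The members' 13.4% lower is below that 18.5%, while the direction was shared: 69 of 82 lay below zero, the median was -0.14, and that of all genes was 0.01. At an unadjusted p under 0.05, 24 members were lower and 0 higher, and DESeq2 called 21 lower and 1 higher. In 38 members all 3 double-construct libraries lay below all 3 Empty/T618I libraries, against 25% of all genes, and in 0 above, against 30.7%. The large subunit held 10 of the 11 (10 of 49 tested), and the small subunit 1 of 33, a split by symbol that puts Rps19bp1 with the small subunit and the paralogues with their parents. These counts moved with single libraries: 29 were lower without Empty/Empty C, 28 without Empty/T618I C, 19 without Empty/Empty B, and 4, 6, 6 and 7 without Asxl1-MT2/T618I A, Asxl1-MT2/T618I B, Empty/T618I B and Asxl1-MT2/Empty A. At the 2 ends, 2450 of 11732 genes were lower without Empty/Empty C and 1539 of 11699 without Asxl1-MT2/T618I A.

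T618I added to truncated Asxl1 gave more calls of the same size. Here 25 of 82 members were lower and 0 higher with both constructs than in Asxl1-MT2/Empty cells (edgeR), where 49.8% of all genes passed, 26.9% higher and 22.8% lower. With all 12 libraries the members' share called lower, 30.5%, was above that 22.8%. At an unadjusted p under 0.05, 34 were lower and 0 higher, and DESeq2 called 28 lower and 0 higher. The median was -0.17 with 78 of 82 below zero, and that of all genes was -0.02. The double-construct libraries lay wholly below in 42 members and wholly above in 0, against 29.1% and 30.9% of all genes. The 25 were 17 of 49 Rpl symbols and 8 of 33 Rps symbols. The count was 7 without Asxl1-MT2/Empty B and 16, 10 and 13 without Asxl1-MT2/T618I A, B and C. Without Asxl1-MT2/Empty B, Asxl1-MT2/T618I B or Asxl1-MT2/T618I C, the members' share called lower was below that of all genes. It stayed above when any other library was left out, so this order depends on single libraries. The 4 comparisons share groups, so their calls are not independent of each other.

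Both counts depend on how libraries are scaled. With library totals in place of TMM factors, 43 members were lower against Empty/T618I and 52 against Asxl1-MT2/Empty. That scaling moved the median of all genes to -0.12 in each, and the members' median to -0.26 and -0.28. It also turned the split of all genes from 2939 higher and 2143 lower to 2266 and 3514 in the first comparison, and from 3118 and 2643 to 2585 and 3805 in the second.

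**Figure D3:**
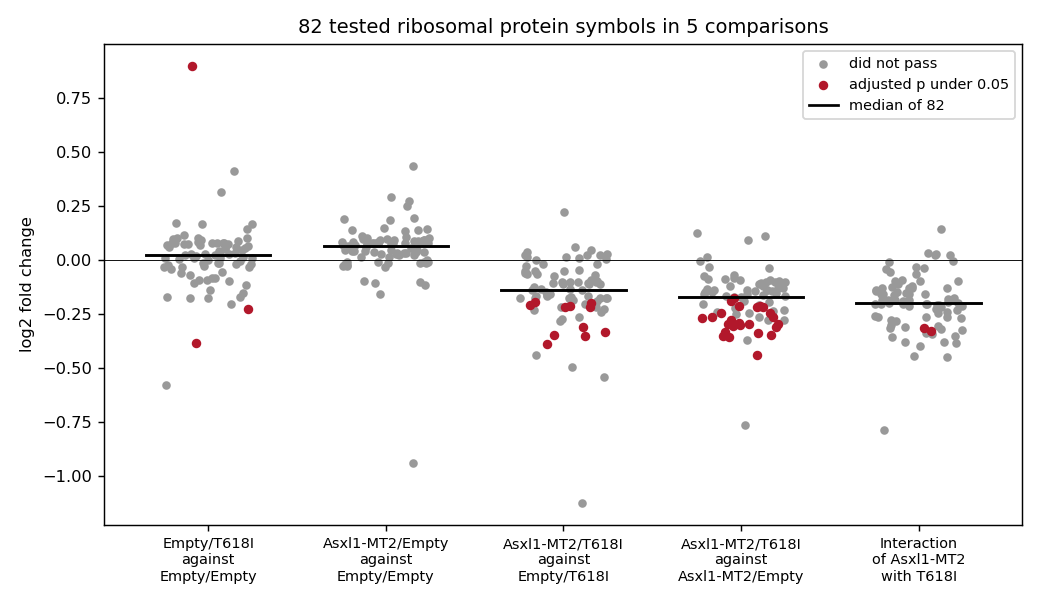
Log2 fold change (y axis) of each of the 82 tested ribosomal protein symbols in the 4 comparisons and the interaction (x axis), red where the adjusted p is under 0.05, with a line at the median. Medians move from 0.02 and 0.07 with 1 construct to -0.14 and -0.17 where both are compared with 1, and few genes lie beyond 0.5.

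Among the large-subunit genes lower in both comparisons was the pair that binds the small 5S ribosomal RNA. Rpl5 and Rpl11 travel with that RNA into the assembling ribosome, and when free they bind the p53 regulator MDM2. Rpl5 was 544, 526 and 726 CPM in Empty/Empty libraries, 621, 628 and 655 in Empty/T618I, 620, 639 and 628 in Asxl1-MT2/Empty and 521, 505 and 509 in Asxl1-MT2/T618I. The double-construct libraries lay below those of every other group. It was lower by edgeR against Empty/T618I (-0.31 ± 0.0979, adjusted p = 0.0165) and against Asxl1-MT2/Empty (-0.30 ± 0.0979, adjusted p = 0.0187). Rpl11 was 587, 541 and 594 CPM in Empty/Empty libraries, 639, 651 and 574 in Empty/T618I, 631, 657 and 603 in Asxl1-MT2/Empty and 546, 541 and 541 in Asxl1-MT2/T618I. It was lower than in either single-construct group (-0.20, adjusted p = 0.0418, and -0.22, adjusted p = 0.0231, edgeR) but overlapped Empty/Empty. The calls of Rpl11 held for 6 and 9 of the 12 libraries left out in turn, and that of Rpl5 against Asxl1-MT2/Empty was lost without Asxl1-MT2/Empty B or Asxl1-MT2/T618I B.

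The walls of the exit tunnel gave 3 of 8 tested members lower against Empty/T618I and 4 of 8 against Asxl1-MT2/Empty, where 18.5% and 22.8% of all genes were lower. Rpl4, which reaches into the tunnel with a long loop, was 1982, 1824 and 2016 CPM in Empty/Empty libraries, 1894, 1940 and 1856 in Empty/T618I, 1956, 2055 and 1937 in Asxl1-MT2/Empty and 1574, 1698 and 1679 in Asxl1-MT2/T618I. Its double-construct libraries lay below the other 9 (-0.20 ± 0.0722, adjusted p = 0.0326, and -0.26 ± 0.0722, adjusted p = 0.00589, edgeR), and the first call was lost without Empty/T618I B or Asxl1-MT2/T618I A. Rpl39 was 158, 170 and 138 CPM in Asxl1-MT2/Empty and 120, 120 and 129 CPM in Asxl1-MT2/T618I, without overlap (-0.34 ± 0.0847, adjusted p = 0.00316, edgeR). Rpl23a, a docking site at the tunnel's mouth, was lower by 0.39 ± 0.117 than in Empty/T618I, where libraries A to C held 268, 267 and 358 CPM against 230, 214 and 238 CPM (adjusted p = 0.0128, edgeR). Without Empty/T618I library C that call was lost.

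Of the core large-subunit proteins, Rpl3, which reaches the peptidyl transferase centre, was 861, 870 and 921 CPM in Empty/T618I and 677, 715 and 692 in Asxl1-MT2/T618I (-0.35 ± 0.124, adjusted p = 0.0309, edgeR). Its Empty/Empty libraries held 709, 709 and 1091 CPM, so the spread of the controls covered the difference, and the call was lost without Empty/T618I C or Asxl1-MT2/T618I A. Rpl14 was 655, 629 and 715 CPM in Empty/T618I and 524, 527 and 534 in Asxl1-MT2/T618I (-0.33 ± 0.101, adjusted p = 0.0126, edgeR) without overlap. Rpl10a (-0.22, adjusted p = 0.0418) and, outside this core, the Rpl7 paralogue Rpl7l1 (-0.21, adjusted p = 0.0245) were also lower against Empty/T618I by edgeR, with no overlap of libraries, and held for 6 and 9 of the 12 libraries left out. Rpl32 (-0.31, adjusted p = 0.00846) and Rpl12 (-0.30, adjusted p = 0.00998) were lower against Asxl1-MT2/Empty only among these 2 comparisons, a difference between the comparisons that was not tested, and the call of Rpl12 was lost without Asxl1-MT2/Empty B.

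In the small subunit, Rps3a1 was 651, 693 and 831 CPM in Empty/Empty libraries, 715, 692 and 645 in Empty/T618I, 750, 782 and 779 in Asxl1-MT2/Empty and 620, 587 and 605 in Asxl1-MT2/T618I. The last group lay below the other 9 libraries, and the difference from Asxl1-MT2/Empty was -0.35 ± 0.0861 (adjusted p = 0.00276, edgeR). Rps24, a gene of the Diamond-Blackfan list, was 885, 948 and 915 CPM in Asxl1-MT2/Empty and 710, 733 and 703 in Asxl1-MT2/T618I (-0.36 ± 0.0962, adjusted p = 0.00553, edgeR). Rps12, at the beak of the subunit, was lower by 0.35 ± 0.124 in the same comparison (adjusted p = 0.0278, edgeR). The call of Rps12 was lost without Asxl1-MT2/Empty A, Asxl1-MT2/Empty B or Asxl1-MT2/T618I B. Rps6, the substrate of the S6 kinases, was 677, 709 and 695 CPM in Asxl1-MT2/Empty and 597, 611 and 613 CPM in Asxl1-MT2/T618I (-0.19 ± 0.0772, adjusted p = 0.0479, edgeR), a call that was lost in 13 of 19 alternative settings.

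Rps19 and Rps14, known from disease, did not pass in any of the comparisons. Rps19, the gene most often mutated in Diamond-Blackfan anemia, held 355, 362 and 305 CPM in Empty/T618I, 394, 402 and 308 in Asxl1-MT2/Empty and 328, 350 and 325 in Asxl1-MT2/T618I. The libraries overlapped, with an interval for the log2 difference of -0.28 to 0.22 against Empty/T618I and -0.39 to 0.11 against Asxl1-MT2/Empty. Rps14, deleted in a form of myelodysplastic syndrome, differed by -0.11 (95% interval -0.36 to 0.15) and -0.13 (-0.38 to 0.12). Of the 20 tested genes of the Diamond-Blackfan list, 2 were lower against Empty/T618I (10%, below the 18.5% of all genes) and 6 against Asxl1-MT2/Empty (30%, beside 22.8%). Rps27a, made as a fusion with ubiquitin, differed by 0.03 and -0.10, and its adjusted p was 0.841 and 0.407 by edgeR. In the stalk, Rplp0 (-0.08 and -0.10) and Rplp1 (-0.07 and -0.14) did not pass. Rplp2, with 0.22 against Empty/T618I (adjusted p = 0.126, edgeR), was the highest of the 13 of 82 members above zero, having been low there. Without Empty/T618I A it was called higher (0.39, adjusted p = 0.00272, edgeR).

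Fau and Rack1 are ribosomal proteins with names outside the rule. Fau, the precursor of RPS30, was 205, 179 and 168 CPM in Empty/T618I and 227, 234 and 193 in Asxl1-MT2/T618I (0.25 ± 0.103, adjusted p = 0.0627, edgeR). Gnb2l1, the table's symbol for Rack1, differed by -0.14 (adjusted p = 0.156, edgeR). Among the names within the rule, Rps19bp1 is no ribosomal protein. This gene, whose product binds RPS19, held 12.7 to 23.2 CPM over the 12 libraries and differed by -0.18 and 0.12 in the comparisons with both constructs (adjusted p = 0.41 and 0.561, edgeR).

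The 4 tested members on the X chromosome (Rps4x, Rpl10, Rpl36a and Rpl39) gave 1 lower call against Empty/T618I and 3 against Asxl1-MT2/Empty, beside 18.5% and 22.8% of all genes. The smallest adjusted p of any member was that of Rpl36a, chrX:134585654-134588062 in RefSeq's GRCm38.p6 annotation, whose protein touches the exit site of the tRNA. It was 223, 248 and 261 CPM in Empty/Empty libraries, 225, 217 and 204 in Empty/T618I, 264, 261 and 246 in Asxl1-MT2/Empty and 185, 181 and 202 in Asxl1-MT2/T618I. The double-construct libraries lay below the other 9, and the difference was -0.44 ± 0.0791 against Asxl1-MT2/Empty (adjusted p = 0.000186, edgeR) and -0.19 ± 0.0792 against Empty/T618I (adjusted p = 0.065, edgeR). Rpl36al on chromosome 12, a paralogue of nearly the same protein, was 124, 128 and 156 CPM in Empty/Empty libraries, 143, 141 and 125 in Empty/T618I, 134, 130 and 140 in Asxl1-MT2/Empty and 104, 103 and 114 in Asxl1-MT2/T618I. Here too the last group lay below all other libraries, with -0.35 ± 0.0919 (adjusted p = 0.00531, edgeR) and -0.34 ± 0.0919 (adjusted p = 0.006, edgeR). Rpl36al, Rpl5 and Rpl14 against Empty/T618I, and Rpl36al, Rpl36a, Rps3a1, Rps24, Rpl32, Rpl4 and Rpl39 against Asxl1-MT2/Empty, passed in all 19 alternative settings.

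How far reads can tell such copies apart is seen in the sequences. The coding sequences of Rpl36a and Rpl36al have 318 bases each and are 87.74% identical. Their first 90 bases from GENCODE M21 are printed with the bases of Rpl36al that differ in capitals, 14 in all.
Rpl36a: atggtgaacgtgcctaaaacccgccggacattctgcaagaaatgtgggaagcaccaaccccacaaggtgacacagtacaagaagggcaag
Rpl36al: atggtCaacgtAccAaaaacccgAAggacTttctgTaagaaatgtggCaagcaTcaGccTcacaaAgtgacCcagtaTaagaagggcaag
The differences are spread over the whole stretch. Against transcripts of other genes the 2 are less distinct: 85.48% of Rpl36a's windows of 50 bases and 63.31% of Rpl36al's also occur there. The sequence that each shares most is with Rpl36a-ps2 and Gm49383.

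Compared with its closest copy, Rps27 is the opposite case. This small-subunit gene at chr3:90212667-90213648 has a copy on chromosome 9, Rps27rt, with a coding sequence that is identical over all 252 bases, and a diverged paralogue, Rps27l, with 76.19% identity. The first 90 coding bases are printed with differences from Rps27 in capitals, 24 of them in Rps27l.
Rps27: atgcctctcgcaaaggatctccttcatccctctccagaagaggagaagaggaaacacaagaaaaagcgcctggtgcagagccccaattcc
Rps27rt: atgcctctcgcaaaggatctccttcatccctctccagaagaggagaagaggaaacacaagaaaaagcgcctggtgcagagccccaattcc
Rps27l: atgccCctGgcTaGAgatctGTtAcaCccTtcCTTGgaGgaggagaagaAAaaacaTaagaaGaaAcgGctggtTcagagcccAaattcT
Rps27 held 14, 9 and 13 counts in Empty/Empty, 22, 21 and 26 in Empty/T618I, 22, 14 and 9 in Asxl1-MT2/Empty and 15, 16 and 15 in Asxl1-MT2/T618I, Rps27rt held 0 throughout, and Rps27l stood at 37.9 to 59.1 CPM. In units per kilobase Rps27 was at 6.53 CPM per kb and Rps27l at 182. The higher call of Rps27 in Empty/T618I (0.90 ± 0.335, adjusted p = 0.0468, edgeR) rests on these few counts, and how reads that match several genes were counted is not given in the sources used here.

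A few other members of every ribosome were also nearly empty in the table. Rpl26 had 0 counts in all 12 libraries, Rpl30 had 3 to 16 and Rpl34 had 13 to 36, far below the other tested members apart from Rps27 and Rpl37rt. GENCODE M21 had a coding transcript for 86 members. Of these, 82 had at least 1 stretch of 50 bases that also occurs in a transcript of another gene. For most members the other genes were mainly pseudogenes, but not for Rpl23 (3 of 39), Rps16 (6 of 58) or Rps20 (4 of 31). Genes that overlap a member's own exons, such as Gm49383 with Rpl36al, were not set apart. The median member shared 54.5% of its windows of 50 bases. The share was 98.65% for Rps27, 71.28% for Rpl26, 50.58% for Rpl34 and 47.79% for Rpl30. Rpl10a shared 88.09% and Rpl23a 82.58%, at 514 and 581 CPM per kb, and the part of shared sequence in the low counts was not tested. Over the 84 of these with a count above 0, the Spearman correlation of level per kilobase with the shared percent was -0.12, a description over genes of the same libraries.

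**Figure D4:**
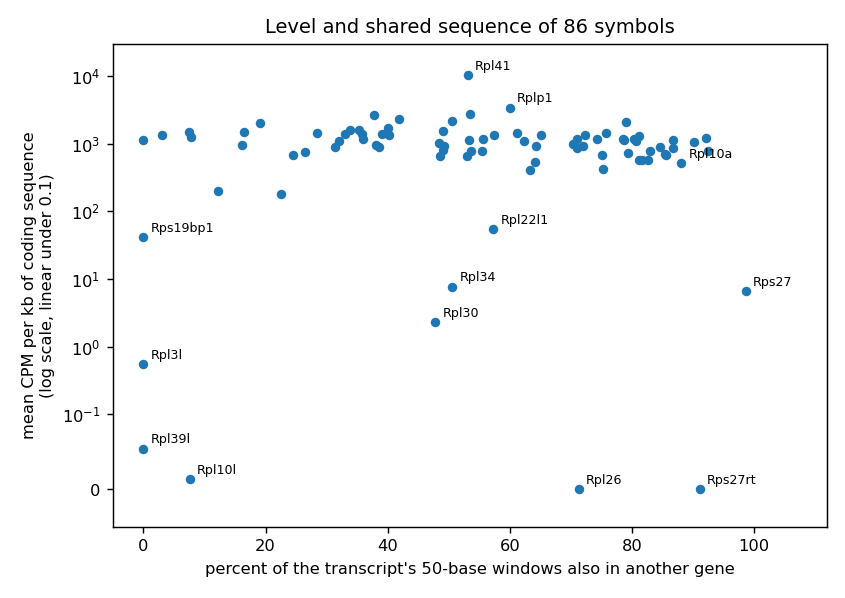
Mean level per kilobase of coding sequence (y axis, log scale, linear under 0.1) against the percent of a transcript's 50-base windows that also occur in another gene (x axis), for 86 members. Rpl26, Rpl30 and Rpl34 lie far below Rpl10a, which shares more sequence, and Rps27 is low at 98.65%.

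The remaining paralogues were low. Rpl22l1 was 21.4, 23.1 and 21.9 CPM in Empty/T618I and 15.1, 16.1 and 17.9 in Asxl1-MT2/T618I without overlap, but did not pass (-0.44 ± 0.192, adjusted p = 0.0746, edgeR), and its parent Rpl22 differed by -0.11. Rpl37rt stood at 3.18 to 5.13 CPM. Rpl3l, a muscle form of Rpl3 with 74.36% identity, did not pass the low-count filter. It had 2, 7 and 7 counts in Empty/Empty, 2, 1 and 6 in Empty/T618I, 8, 5 and 1 in Asxl1-MT2/Empty and 15, 16 and 9 in Asxl1-MT2/T618I. The double-construct libraries were the highest of all, opposite to Rpl3. Without the filter it was higher against Empty/T618I (2.17, adjusted p = 0.00641, edgeR) and against Asxl1-MT2/Empty (1.56, adjusted p = 0.034, edgeR). Rpl10l and Rpl39l had 1 count each in all libraries together, and Rps4l had 2.

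The interaction asks whether the change that Asxl1-MT2 brought in T618I cells differed from the change it brought without T618I. By edgeR 2 of 82 members passed, both lower, where 19.6% of all genes passed, 14.1% higher and 5.51% lower. The median was -0.20 with 77 of 82 below zero, and that of all genes was 0.02. At an unadjusted p under 0.05, 16 were lower and 0 higher, and DESeq2 called 5 lower and 0 higher. Rpl23 was 636, 622 and 678 CPM in Empty/Empty libraries, 732, 698 and 704 in Empty/T618I, 675, 728 and 732 in Asxl1-MT2/Empty and 644, 607 and 640 in Asxl1-MT2/T618I. Each construct alone went with a higher mean, and both together with the level of the controls (interaction -0.32 ± 0.0996, adjusted p = 0.0334, edgeR). Rpl11 had the same order (-0.33 ± 0.105, adjusted p = 0.0345, edgeR). Each of these calls was lost without 8 of the 12 libraries, left out in turn. Without Empty/Empty C 27 of 83 members passed, all lower, beside 909 lower of 11732 genes. With library totals 19 members were lower, and the split of all genes went from 1635 higher and 638 lower to 1312 and 1393.

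Of 23 ribosome assembly factors, 10 were higher and 1 lower with T618I alone (median 0.23, edgeR), where 17.6% and 15.9% of all genes were. In the comparisons of both constructs with 1, the counts of this and other related lists stand beside 25.4% of all genes higher and 18.5% lower against Empty/T618I, and 26.9% and 22.8% against Asxl1-MT2/Empty. Against Empty/T618I, 22 of 23 assembly factors were lower with both constructs, with a median of -0.58 beside the -0.14 of the ribosomal protein genes. Against Asxl1-MT2/Empty, 12 were lower and 1 higher, with a median of -0.24 beside the -0.17 of the ribosomal protein genes. In the interaction 13 of 23 passed, all lower. RNA polymerase I, which makes ribosomal RNA, had 8 of 11 subunits and factors lower against Empty/T618I (median -0.39) and 4 against Asxl1-MT2/Empty (median -0.17, as for the ribosomal protein genes). Of 5 chaperones that carry single ribosomal proteins to assembly, 4 were lower in each of these comparisons. Myc, a known activator of these genes, was 358, 400 and 296 CPM in Empty/T618I and 166, 206 and 208 in Asxl1-MT2/T618I (-0.86 ± 0.115, adjusted p = 1.33e-05, edgeR), and its part in these changes was not tested.

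Other mRNAs with a TOP tract lay nearer to the ribosomal protein genes. Of 16, 9 were lower and 1 higher against Empty/T618I (median -0.26), and 7 were lower against Asxl1-MT2/Empty (median -0.18, edgeR). Eef2, which moves the ribosome along, was 3721, 3958 and 3756 CPM in Empty/T618I and 3175, 3270 and 3214 in Asxl1-MT2/T618I (-0.24 ± 0.0707, adjusted p = 0.0101, edgeR). The exception was Tpt1, which was higher by 0.23 (adjusted p = 0.025, edgeR). Of 6 TOP host genes of small nucleolar RNAs, 3 were higher with T618I alone and 3 lower when Asxl1-MT2 was added to it. Gas5 was among both (0.31, adjusted p = 0.0296, and -0.38, adjusted p = 0.007, edgeR). Against Asxl1-MT2/Empty 0 of these 6 host genes passed, 1 had an unadjusted p under 0.05 (edgeR), and the median was 0.03. Of 14 genes that control TOP translation, 3 were higher and 2 lower against Empty/T618I, near or below the 25.4% and 18.5% of all genes. Larp1 was lower (-0.33, adjusted p = 0.00757, edgeR) and Eif4ebp1, a translation repressor under mTOR, higher (0.35, adjusted p = 0.009, edgeR), while Mtor itself did not pass (-0.24, adjusted p = 0.0843, edgeR).

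Subunit genes of mitochondrial complexes, many of them also short mRNAs, gave similar second medians. Of 77 mitochondrial ribosomal protein genes, 4 were higher and 25 lower against Empty/T618I (median -0.17), and 1 higher and 27 lower against Asxl1-MT2/Empty (median -0.20). Of 80 tested oxidative phosphorylation subunits, 3 were higher and 9 lower (median -0.02), and 27 were lower (median -0.19, edgeR). The first median of the cytoplasmic ribosomal protein genes, -0.14, lay between these lists, and the second, -0.17, just above both.

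**Figure D5:**
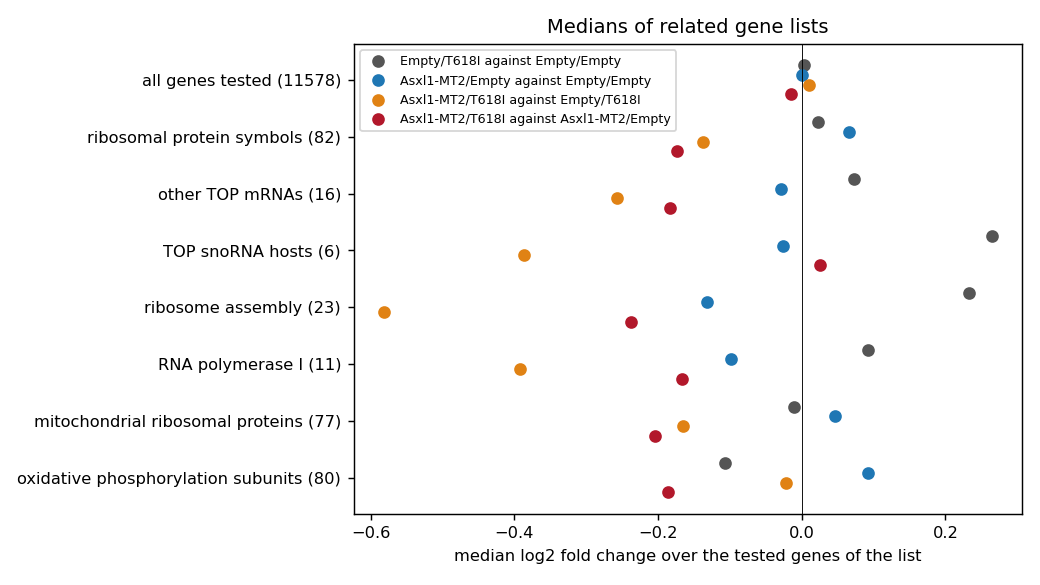
Median log2 fold change (x axis) over the tested genes of each related list (rows, number of genes in brackets) in 4 comparisons (colours). Ribosome assembly factors reach -0.58 against Empty/T618I, while the ribosomal protein symbols stay at -0.14. Against Asxl1-MT2/Empty the 2 medians are -0.24 and -0.17.

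The start sites of members were searched for motifs, since the genes moved together. RefSeq promoters of 300 bases (GRCm38.p6) were found for 67 of the 88. The letters CCGGAAG, the core bound by ETS factors such as GABPA, occurred on either strand in 25 of 67 (37.3%), against 9.12% of 27025 promoters. AAGATGGC, the core of the YY1 motif, occurred in 7.46% against 2.88%, and CTTTC in 80.6% against 57.1%. A run of C and T bases at least 10 long lay in the last 100 bases in 61.2% of members and 17.998% of all, with a median longest run of 10 against 7. A match of letters is not evidence of binding. The comparison set was all promoters, not matched to the members for level in these cells. The contrast is therefore not shown to be particular to ribosomal protein genes, and the part of these motifs in the shared shifts was not tested. The 100 bases before the start site are printed for 3 members with CCGGAAG in capitals: Rps3a1 and Rps6, lower against Asxl1-MT2/Empty, and Rpl37, whose log2 differences of -0.05 and -0.07 did not pass.
Rps3a1, chr3:86142669-86142768, minus strand: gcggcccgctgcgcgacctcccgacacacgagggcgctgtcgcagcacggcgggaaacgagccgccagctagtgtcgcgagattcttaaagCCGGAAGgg
Rps6, chr4:86857368-86857467, minus strand: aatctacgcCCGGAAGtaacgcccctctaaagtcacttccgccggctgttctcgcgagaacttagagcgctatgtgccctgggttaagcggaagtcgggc
Rpl37, chr15:5116513-5116612, plus strand: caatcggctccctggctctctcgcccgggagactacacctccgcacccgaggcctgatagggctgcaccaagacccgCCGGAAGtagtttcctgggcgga
The motif stood near the start in Rps3a1 and Rpl37 and farther upstream in Rps6, and it was present both in genes that were lower and in one that did not pass.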

How the data were processed

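RNA of 12 libraries in 4 groups was sequenced, and the authors deposited 1 table of whole-number counts per gene symbol, not normalized. The submitters' processing notes name Trimmomatic, STAR, DESeq2 and the build mm10. The counting tool, annotation, strand setting and handling of reads that match several genes are not given in the sources used here. Library letters A to C in the table could not be tied to the numbers of the titles, only to groups, and 0 value columns were left unmapped.

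Counts were filtered with edgeR's filterByExpr, which left 11578 of 24411 symbols (7965 were at 0 in all libraries), and scaled with TMM factors. CPM are counts per 1000000 of the scaled library totals. The quasi-likelihood test of edgeR 4.0.16 (R 4.3.3) was fitted to 4 group means over all 12 libraries, with Benjamini-Hochberg adjustment over all genes tested and a threshold of 0.05. On simulated data for Asxl1-MT2/T618I against Asxl1-MT2/Empty with 11425 genes, 20% of genes with a set change of 1.25-fold and 78% with one of 1.5-fold were recovered by the same test, which also called 8 genes without a change. In the simulation 50 genes were changed at each fold size, whereas 49.8% of all genes passed in the real comparison. The adjustment was therefore stricter in the simulation, and the changed genes were not matched to the members in level. The percents recovered are thus not those of the ribosomal protein genes. Most differences of ribosomal protein genes are below 1.25-fold, so a missed threshold does not show equal levels. Alternatives were DESeq2 1.42.0, other scalings, no filter, fewer groups, a replicate block by letter and each library left out.

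The members and gene lists were chosen with earlier results of these data known. Genes were named by role (stalk, 5S binding, paralogues and parents, Rps6, Rps14, Rps19, Rps27a, Rps19bp1), as the 5 of highest level per kilobase, as members that did not pass the filter and as up to 10 called members per direction and comparison by size of change. Gene positions and promoters came from RefSeq (GRCm38.p6, where all 88 symbols matched), and transcripts from GENCODE M21. Protein sequences were not used here. Some genes that this rule names are not reported here, though they remain in the counts.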

Additional observations from a re-analysis of the deposited data

Results flagged for a closer look

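For 2 ribosomal protein genes the change with Asxl1-MT2 differed by test between cells with and without T618I, by the interaction term of edgeR's quasi-likelihood test. The interaction of Rpl23 was -0.317 on the log2 scale (adjusted p = 0.0334): with Asxl1-MT2 the gene changed by 0.14 in cells without T618I and by -0.17 in cells with it. For Rpl11 it was -0.331 (adjusted p = 0.0345), from 0.14 and -0.20. Over the alternatives the largest adjusted p was 0.0875 for Rpl23 and 0.0961 for Rpl11.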

How the results depend on the processing

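The direction of each named call held in every alternative run. The mean share of counts taken by the members in each group moved by less than that group's SD with pseudogene symbols added. The same held without the paralogues and Rps19bp1. Leaving out a library of the group cannot test this, since with 3 libraries the mean can never move by as much as their SD. Counts of members called moved more. With T618I alone, 1 was lower with DESeq2 size factors, library totals or TMM factors from the other genes, and without a filter 0 were higher and 1 lower. Against Empty/T618I, 43 were lower with library totals (median -0.26), 19 with TMM factors from the other genes, 21 by DESeq2 and 27 with only the 2 groups fitted, and Rpl3l made 1 higher without a filter and by DESeq2. Against Asxl1-MT2/Empty, 52 were lower with library totals, and 1 was higher without a filter. In the interaction, 19 were lower with library totals, 5 by DESeq2 and 6 with the replicate block. The cause was not tested, except that dropping the filter or groups changes the genes or samples fitted.

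Leaving out each library gave 0 to 12 higher and 0 to 2 lower with T618I alone (median -0.01 to 0.10) and 0 of either with Asxl1-MT2 alone (median 0.00 to 0.12). It gave 0 to 2 higher and 4 to 29 lower against Empty/T618I (median -0.21 to -0.11), and 0 to 1 and 7 to 30 against Asxl1-MT2/Empty (median -0.24 to -0.13). In the interaction it gave 0 to 1 and 0 to 27 (median -0.29 to -0.14). Libraries with the same letter correlated at -0.07 to 0.26 in their deviations, over 0.1 in 7 of 18 pairs. The highest, 0.18 to 0.26, were those of letters A and C among the groups other than Asxl1-MT2/T618I. Letter B gave -0.02 to 0.06 among these groups. Pairs of unlike letters were not compared, so whether the letters mark a pairing was not tested. With the replicate block 1 member was higher and 3 lower with T618I alone, 0 of either with Asxl1-MT2 alone, 15 lower against Empty/T618I and 30 against Asxl1-MT2/Empty. Libraries of 1 group differed beyond counting noise (chi-square per degree of freedom 3.23 to 13.5), so depth was not the limit for most members, while Rps27, Rpl30 and Rpl34 had too few counts to show small differences.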
